A study of Oryctolagus cuniculus with 15 samples.

Results

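The genes described here are 10 receptors through which cells hold on to collagen and fibronectin, chosen by name from the 23428 genes of the count table. They are the integrin alpha subunits ITGA1, ITGA2, ITGA4, ITGA5, ITGA10, ITGA11 and ITGAV, the beta subunit ITGB1, and the syndecans SDC1 and SDC4. All 10 were present in the table, and the rule that picked them names genes and uses no measured value, although earlier results of these data were known when it was written. RNA came from primary corneal keratocytes of New Zealand white rabbits, used at first passage and kept for 6 days in a defined medium without serum. Every condition thus shared the absence of serum. The conditions differed in the collagen around the cells, in cell number or in an enzyme step before lysis. In 2DC the cells grew on a dish coated with collagen and were held in an enzyme medium before lysis, whereas in 2DC_L the same kind of dish was lysed directly. In 2DF the cells lay on a matrix of fibrillar type I collagen, in 3DF they were embedded in it at 100000 cells per matrix, and in 3DF_50 they were embedded at 50000 per matrix. Both kinds of fibrillar culture were also dissolved enzymatically before lysis, the collagen was bovine, and each library pooled several dishes or matrices of 1 experiment.

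An integrin is a pair of one alpha and one beta chain that spans the cell membrane, binds a matrix protein outside the cell and is tied to actin inside it through adapters such as talin and kindlin. ITGB1 encodes the beta chain that ITGA1, ITGA2, ITGA10 and ITGA11 pair with to bind collagen, and that ITGA4, ITGA5 and ITGAV can pair with to bind fibronectin. Syndecans are membrane proteoglycans whose heparan sulfate chains bind fibronectin, collagens and growth factors beside the integrins. Keratocytes are the cells of the corneal stroma, which they fill with ordered type I and type V collagen.

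Each condition had 3 libraries, with 14626982 to 31804255 counted reads per library. The 6 keratocyte markers examined (KERA, LUM, DCN, OGN, ALDH1A1 and TKT) summed to between 20040 and 43020 FPKM in the 15 libraries. Of 12 corneal epithelium markers, 10 were in the table, and their sum ran from 0.515 to 1.43 FPKM in 2DC and from 0.464 to 1.22 in 2DC_L. It ran from 1.62 to 7.47 in 2DF, from 10.6 to 15.8 in 3DF and from 0.747 to 7.52 in 3DF_50. KRT12, the keratin of corneal epithelium, was at 0 in all libraries of 2DC and 2DC_L. It was also at 0 in 2DF replicate 1 and in 3DF_50 replicates 1 and 2. Not every marker of this list was higher in 3DF, since TP63 was at 0.068 to 0.27 in 2DC and 0.072 to 0.112 in 3DF. Other marker sums moved too. The 3 myofibroblast markers in the table summed to 4.94 to 7.48 FPKM in 2DC and 0.715 to 1.07 in 3DF, and the 4 of corneal endothelium to 344.7 to 461.7 in 2DC and 193.5 to 261.6 in 3DF. The 5 of vascular endothelium summed to 32.9 to 62.5 in 2DC and 116.7 to 118.8 in 3DF, nearly all of it KDR, with PECAM1 at most 0.042. The part of these cell types in the results on the members was not tested. SDC1 is also made by epithelium, and whether epithelial cells had a part in its level was not tested. Levels below are the deposited FPKM, that is, read counts scaled to gene length and by a factor for each library. Levels of different genes are thus compared per length. In RNA from whole cultures, fewer cells of a type and less RNA per cell cannot be told apart.

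Differences between conditions were tested on the counts of all genes with the edgeR quasi-likelihood test, and p-values were adjusted over all genes tested (Benjamini–Hochberg). A gene was called when the adjusted p was at most 0.05 and the log2 fold change was at least 1 in size. Several comparisons share libraries, such as the 2DC libraries that serve both 3DF and 2DF, so their values are given side by side and are not independent of one another.

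Between embedded cells and cells on coated dishes (3DF against 2DC), the syndecans moved in opposite directions. SDC4 rose and SDC1 fell, and these were the 2 members called, against a background of 7.56% of all 13493 genes tested. ITGB1 and ITGA11 were lower with an adjusted p under the threshold but by less than 1 on the log2 scale. The median log2 fold change of the 10 members was -0.28, beside 0.01 for all genes tested.

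On top of the fibrillar matrix (2DF against 2DC), SDC4 and ITGA10 rose and SDC1 fell, which made 3 members called where 4.96% of 13258 genes were called. ITGA11 was higher and ITGA2 lower with adjusted p-values under the threshold and smaller fold changes. The members' median was -0.24, beside 0.01 for all genes.

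Between embedded cells and cells on top of the matrix (3DF against 2DF), ITGA4 rose and ITGA11 fell. These 2 members were called where 3.78% of 13195 genes were called. ITGA10 and SDC1 passed the adjusted p alone, both lower in 3DF. The members' median was -0.22, beside 0.01 for all genes.

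With the embedded cells at the higher against the lower density (3DF against 3DF_50), ITGA2 was the 1 member called, higher in 3DF, where 0.452% of 13285 genes were called. The median of the members was 0.40, beside 0.01 for all genes.

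Holding the coated dishes in the enzyme medium (2DC against 2DC_L) called 0 members with edgeR and 0 with DESeq2, where 0.265% of 13608 genes were called with edgeR. One member, SDC1, had an unadjusted p under 0.05. The adjusted p-values of the 10 members lay between 0.839 and 0.999. The interval of the difference was widest for ITGA4, from -1.11 to 0.60 on the log2 scale (95% interval), and for ITGA2 it ran from -0.23 to 0.19.

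The comparison of 3DF_50 with 2DC_L uses none of the libraries of 3DF against 2DC, but it differs in culture format, cell number and enzyme step at once. SDC1, ITGA1, ITGA11 and ITGA2 fell, and these 4 members were called where 13.5% of 13321 genes were called. ITGB1, ITGAV and SDC4 passed the adjusted p alone, with only SDC4 higher in 3DF_50. The members' median was -0.81, beside 0.00 for all genes.

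In 1 test over all 5 conditions, 8 of 10 members had an adjusted p under the threshold, where 41.8% of 14036 genes did (edgeR, Benjamini–Hochberg). SDC1 had the smallest value, 6.83e-08, followed by SDC4 with 1.93e-06 and ITGA11 with 3.92e-06. ITGA5 and ITGAV did not pass, with adjusted p-values of 0.056 and 0.192. ITGA4 was close to the threshold, at 0.0471, and DESeq2 also passed 8 members but had ITGA5 in place of ITGA4. ITGA4 was lost in 9 of the 15 fits that left out 1 library, those without 2DC replicate 2, 2DC_L replicate 2, 2DF replicate 1 or 3, 3DF replicate 1 or 3, or any 1 of the 3DF_50 libraries.

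**Figure D1:**
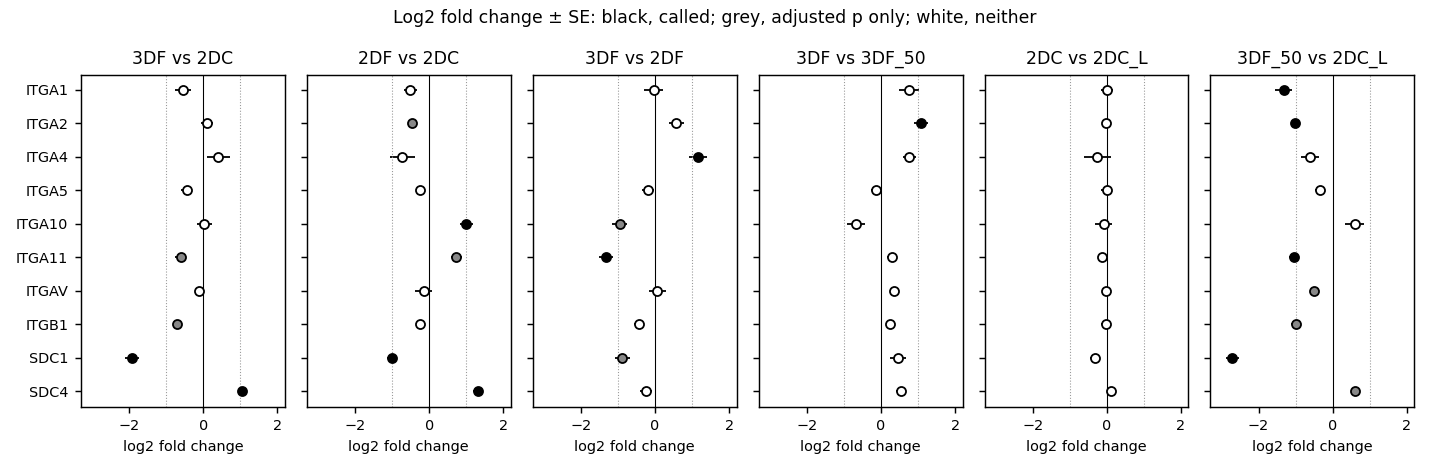
Log2 fold change (x axis) with its SE for each of the 10 genes (y axis) in the 6 comparisons, from the edgeR fits with 3 libraries per condition. Black points were called, grey points passed the adjusted p alone and white points did neither. SDC1 and SDC4 lie on opposite sides of 0 in the comparisons of fibrillar with coated cultures, and in 2DC against 2DC_L no point is filled.

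SDC1, a syndecan best known from epithelia and plasma cells, had the widest range of the members. The gene is annotated on chromosome 2 of oryCun2, from 169359003 to 169362474 on the minus strand. In 2DC its 3 libraries were at 60.7, 62.95 and 57.55 FPKM, and in 2DC_L at 72.3, 63.6 and 91.5. In 2DF they were at 35.5, 29.9 and 24.0, in 3DF at 11.7, 18.0 and 18.5, and in 3DF_50 at 13.0, 8.78 and 12.9. All 6 coated-dish libraries were above all 9 fibrillar libraries, and the 2DF libraries were above every embedded library. The highest condition mean, 75.8 ± 14.3 (SD, n = 3) in 2DC_L, was 6.56 times the lowest, 11.6 ± 2.4 in 3DF_50. SDC1 fell by 1.92 (SE 0.18) on the log2 scale in 3DF against 2DC, a 3.78-fold lower level (edgeR adjusted p = 0.000433), and stayed called without each library in turn (-2.03 to -1.73). It fell by 1.01 (SE 0.13) in 2DF against 2DC (adjusted p = 0.00198), just past the fold limit. That call was lost without 2DC replicate 2, at -0.98, without 2DF replicate 3, at -0.88, and with scaling by library size alone, at -0.90. In 3DF against 2DF the change was -0.89 (SE 0.20, adjusted p = 0.0303), which passed the fold limit only without 2DF replicate 3, at -1.02. SDC1 fell by 2.71 (SE 0.17) in 3DF_50 against 2DC_L (adjusted p = 3.11e-06), again in every fit that left out a library.

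SDC4, the syndecan found in focal adhesions, where it acts with ITGA5 and ITGB1 as a receptor for fibronectin, was the member with the opposite course. It is annotated on the unplaced sequence Un0027, from 472401 to 481672 on the minus strand. Its libraries were at 34.6, 36.65 and 40.6 FPKM in 2DC and at 28.9, 34.9 and 39.8 in 2DC_L. They were at 84.4, 78.2 and 114.8 in 2DF, at 73.5, 85.25 and 74.85 in 3DF, and at 49.9, 48.3 and 58.85 in 3DF_50. Every fibrillar library was above every coated-dish library, and the 3DF_50 libraries were the lowest of the fibrillar ones. SDC4 rose by 1.05 (SE 0.12) on the log2 scale in 3DF against 2DC (edgeR adjusted p = 0.000895) and by 1.32 (SE 0.14) in 2DF against 2DC (adjusted p = 0.000892). The 2DF call held without each library, whereas the 3DF call was lost without 3DF replicate 2, at 0.98. Embedded and overlying cells did not differ past the threshold (-0.24, 95% interval -0.61 to 0.12). SDC4 was higher by 0.55 (SE 0.13) at the higher density, with an adjusted p of 0.0859, and by 0.60 (SE 0.12) in 3DF_50 against 2DC_L, with an adjusted p of 0.00323.

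The FPKM of SDC4 was therefore below that of SDC1 on coated dishes and above it in fibrillar collagen. The ratio of SDC4 to SDC1 was 0.619 ± 0.075 (SD, n = 3) in 2DC and 0.462 ± 0.078 in 2DC_L. It was 3.26 ± 1.32 for cells on the matrix, 5.02 ± 1.15 for 3DF and 4.63 ± 0.84 for 3DF_50. These ratios were not tested beyond the tests of each gene. Both genes were minor beside SDC2, the syndecan with the highest level, which made up 64.7% to 72.9% of the summed syndecan FPKM in the condition means. SDC1 made up 14.75% of that sum in 2DC, but only 7.91% in 2DF and 4.62% in 3DF, whereas the values of SDC4 were 9.07%, 23.9% and 22.2%. The sum itself had condition means of 258.0 in 3DF_50 to 429.9 in 2DC_L.

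**Figure D2:**
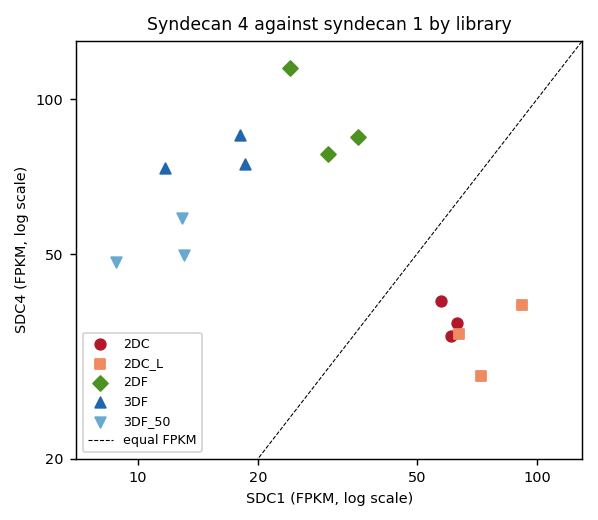
FPKM of SDC4 (y axis) against FPKM of SDC1 (x axis), both on log scales, with 1 point per library and the dashed line at equal levels. The 6 coated-dish libraries (2DC, 2DC_L) lie below the line and the 9 libraries from fibrillar collagen (2DF, 3DF, 3DF_50) lie above it.

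ITGB1, the shared beta chain, had the highest level of the members in every library. It is annotated on the unplaced sequence Un0026, from 2844189 to 2890817 on the plus strand. It was at 246.8, 269.1 and 264.2 FPKM in 2DC, at 248.0, 238.5 and 312.1 in 2DC_L, and at 221.3, 204.7 and 232.5 in 2DF. In the embedded cultures it was at 170.1, 161.9 and 152.9 in 3DF and at 129.4, 132.6 and 137.4 in 3DF_50. The conditions thus formed a falling series with no overlap of the libraries from 2DC to 2DF, 3DF and 3DF_50, although no step between neighbours passed the adjusted p (0.142, 0.0958 and 0.278). Across 2 steps, from 2DC to 3DF, the change was -0.70 (SE 0.11) on the log2 scale (edgeR adjusted p = 0.00516). In 3DF_50 against 2DC_L it was -0.997 (SE 0.12, adjusted p = 0.000158), short of the fold limit by less than its SE. It passed that limit without 2DC_L replicate 1, at -1.05, without 2DC_L replicate 2, at -1.07, and without 3DF_50 replicate 3, at -1.02. It was also called with DESeq2, at -1.0007, with DESeq2 size factors in edgeR, at -1.0008, and without a filter on low counts, at -1.01.

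ITGB1 made up 60.6% ± 1.6 (SD, n = 3) of the summed FPKM of the 8 beta subunits in 2DC and 59.8% ± 6.2 in 2DC_L. On the fibrillar matrix this share was 53.3% ± 3.2, and in the embedded cultures it was 48.8% ± 2.6 at the higher and 47.2% ± 1.3 at the lower density. The other beta subunit at a high level was ITGB5, which pairs with ITGAV, with condition means of 138.9 to 180.7 FPKM. The level of ITGB1 was 1.46 ± 0.03 times the summed level of the 16 alpha subunits in 2DC, 1.22 ± 0.12 times in 3DF and 0.99 ± 0.15 times in 2DF.

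**Figure D3:**
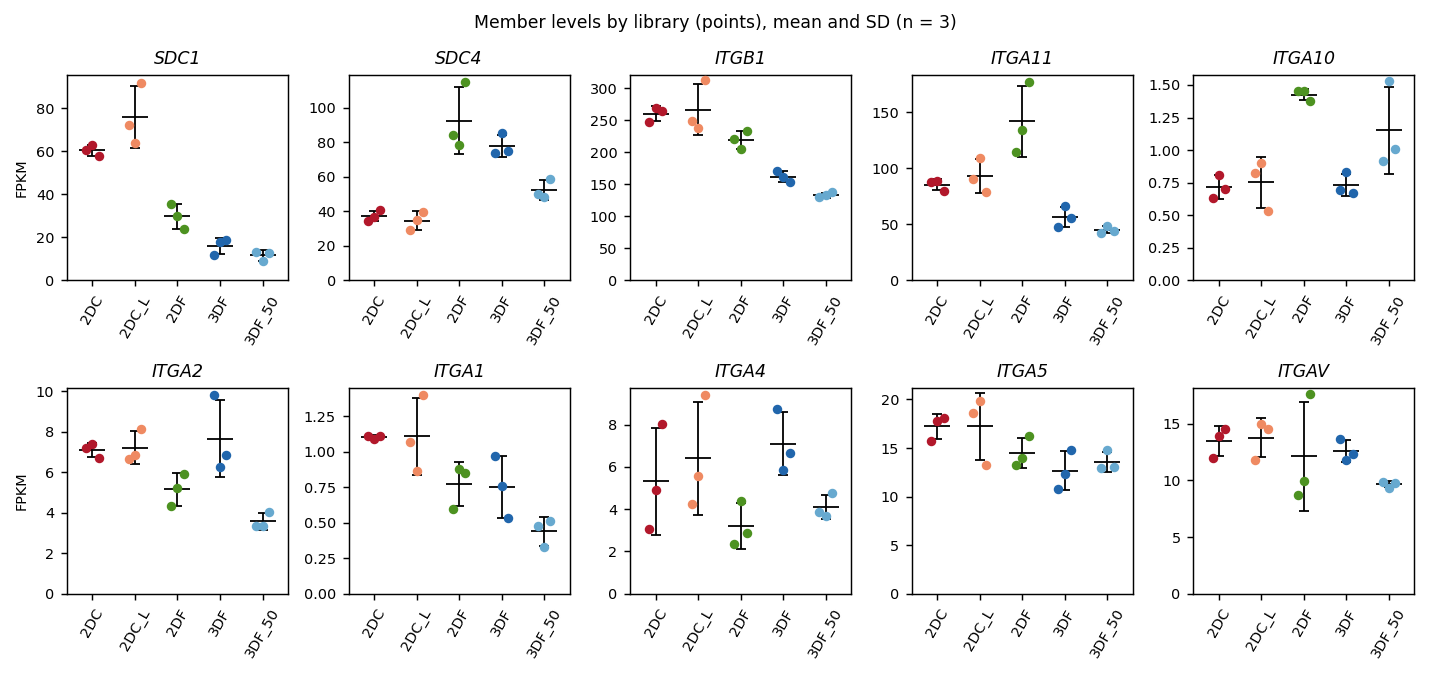
FPKM (y axis, from 0) of each of the 10 genes in the 5 conditions (x axis), with 1 point per library and a bar for the mean and SD of 3 libraries. ITGB1 steps down from 2DC through 2DF and 3DF to 3DF_50, ITGA11 and ITGA10 have their highest means in 2DF, and ITGA5 and ITGAV span the least.

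ITGA11, the alpha chain through which fibroblasts bind fibrillar collagen, was the alpha subunit with the highest level in every library. It lies on chromosome 17, from 4139877 to 4240201 on the plus strand, and an uncharacterised gene on the minus strand overlaps it. Its libraries were at 87.6, 89.05 and 79.7 FPKM in 2DC, at 90.7, 109.0 and 79.0 in 2DC_L and at 114.5, 134.1 and 176.9 in 2DF. They were at 47.6, 65.9 and 55.7 in 3DF and at 42.4, 48.6 and 44.15 in 3DF_50. Overlying cells were thus above, and both embedded cultures below, every coated-dish library. ITGA11 fell by 1.33 (SE 0.19) on the log2 scale in 3DF against 2DF (edgeR adjusted p = 0.00343), a 2.51-fold lower level, and the call held without each library in turn. Against 2DC the value was 0.74 (SE 0.15, adjusted p = 0.0137) for 2DF and -0.61 (SE 0.14, adjusted p = 0.0245) for 3DF. ITGA11 fell by 1.04 (SE 0.13) in 3DF_50 against 2DC_L (adjusted p = 0.00015), a call lost without 2DC_L replicate 2, at -0.91, and without 3DF_50 replicate 1, where -0.9997 was just inside the limit. With library size alone it was at -0.69.

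ITGA11 made up 47.9% ± 2.9 (SD, n = 3) of the summed FPKM of 16 alpha subunits in 2DC and 48.4% ± 4.0 in 2DC_L. Its share was 62.65% ± 3.32 in 2DF, whereas it was 42.1% ± 4.2 for 3DF and 39.9% ± 0.8 for 3DF_50, so each 2DF library was above all others. Among the 4 collagen-binding alpha chains it made up between 85.75% (3DF) and 95.01% (2DF) in the condition means. The ratio of ITGB1 to ITGA11 was 3.05 ± 0.25 in 2DC, 2.96 ± 0.90 in 2DC_L, 2.92 ± 0.58 in 3DF and 2.96 ± 0.20 in 3DF_50, and 1.59 ± 0.31 in 2DF. The alpha subunit with the next level was ITGA3, a laminin receptor, with condition means of 20.03 to 30.9 FPKM. The shares and ratios carry no test of their own.

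**Figure D4:**
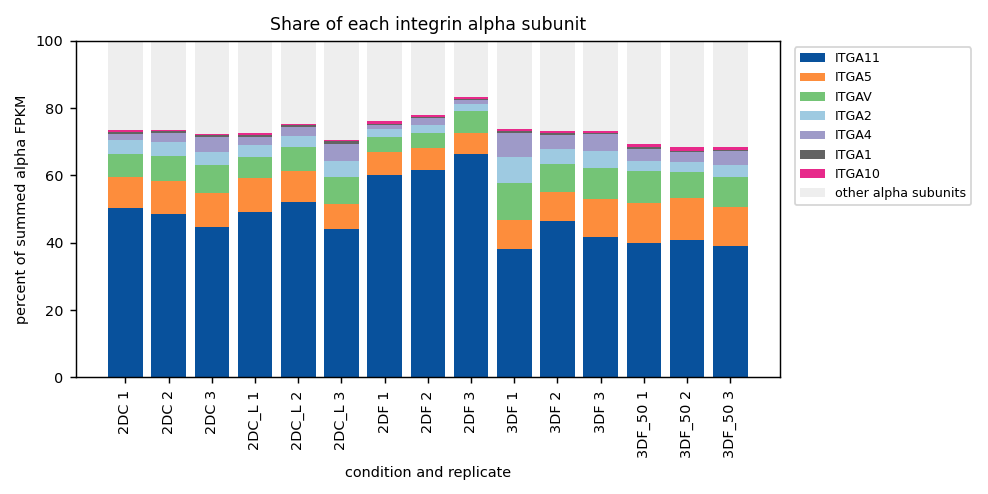
Percent of the summed FPKM of 16 integrin alpha subunits (y axis, 0 to 100) held by each of the 7 alpha members and by all others, with 1 bar per library (x axis). ITGA11 is the largest segment in all 15 bars, with means of 62.65% in 2DF and 39.9% in 3DF_50.

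ITGA2, whose product with ITGB1 is a receptor for type I collagen, separated the embedded cultures by density. Its place is chromosome 11, from 69030882 to 69137455 on the plus strand. It was at 7.20, 7.395 and 6.70 FPKM in 2DC, at 6.67, 6.84 and 8.135 in 2DC_L and at 4.315, 5.21 and 5.92 in 2DF. It was at 9.83, 6.25 and 6.87 in 3DF and at 3.34, 3.33 and 4.03 in 3DF_50, so every 3DF_50 library was below every other library. ITGA2 rose by 1.07 (SE 0.18) on the log2 scale in 3DF against 3DF_50 (edgeR adjusted p = 0.0401). DESeq2 also called it (1.07). Of the fits that left out 1 library, this call held only in the one without 3DF replicate 2. It was lost on the fold limit without 3DF replicate 1, at 0.85. It was lost on the adjusted p without 3DF replicate 3, at 1.15, and without 3DF_50 replicate 1, 2 or 3, at 1.02, 1.03 and 1.15. Of all genes, these fits called 4, 0, 0 and 61, in the same order. Over the 6 fits without 1 library the adjusted p ran from 0.0172 to 0.238. The call was also lost with library size alone, at 0.91, and with limma on log2(FPKM + 1) and log2(FPKM + 0.1), at 0.90 and 1.06. Of all genes, those fits called 53, 6 and 16. ITGA2 fell by 1.01 (SE 0.11) in 3DF_50 against 2DC_L (adjusted p = 8.19e-05). That call was lost without 2DC_L replicate 3, at -0.92, and without 3DF_50 replicate 1 or 2, at -0.96 each, with library size alone, at -0.65, and with limma on log2(FPKM + 1) and log2(FPKM + 0.1), at -0.85 and -0.9957. On the fibrillar matrix it was lower than on 2DC by 0.46 (SE 0.12, adjusted p = 0.0303), and in 3DF against 2DF it was higher by 0.58 (SE 0.19, adjusted p = 0.12).

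ITGA1, a collagen receptor chain with a preference for the type IV collagen of basement membranes, was near 1 FPKM or below in most libraries. It begins upstream of ITGA2 on chromosome 11, from 68826975 to 69006091 on the plus strand, and PELO and an uncharacterised gene lie within this span on the same strand, so its reads may be divided among them. It was at 1.11, 1.09 and 1.11 FPKM in 2DC, at 1.06, 0.861 and 1.395 in 2DC_L, at 0.5965, 0.876 and 0.849 in 2DF, at 0.970, 0.755 and 0.532 in 3DF and at 0.478, 0.325 and 0.511 in 3DF_50. These levels rest on 60 to 325 counts per library. ITGA1 fell by 1.32 (SE 0.23) on the log2 scale in 3DF_50 against 2DC_L (edgeR adjusted p = 0.00124), and the call held without each library in turn but not with library size alone, at -0.97, or with limma on log2(FPKM + 1), at -0.55. Its values of -0.56 (SE 0.21, adjusted p = 0.121) in 3DF against 2DC and 0.76 (SE 0.27, adjusted p = 0.175) in 3DF against 3DF_50 did not pass, although the libraries did not overlap in either comparison.

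ITGA10, a collagen receptor chain best known from cartilage, was also low, on 51 to 165 counts per library. It lies on chromosome 13, from 42822300 to 42842423 on the plus strand. It was at 0.632, 0.813 and 0.700 FPKM in 2DC, at 0.828, 0.901 and 0.530 in 2DC_L, at 1.45, 1.45 and 1.37 in 2DF, at 0.693, 0.828 and 0.673 in 3DF and at 0.916, 1.53 and 1.01 in 3DF_50. Only 1 library outside 2DF, 3DF_50 replicate 2, reached the range of 2DF. ITGA10 rose by 1.005 (SE 0.17) on the log2 scale in 2DF against 2DC, a 2.01-fold higher level (edgeR adjusted p = 0.00624). It fell short of the fold limit without 2DC replicate 1, at 0.92, without 2DC replicate 3, at 0.99, and without 2DF replicate 1 or 2, at 0.99 each. It also fell short without a filter on low counts, at 0.99, and with limma on log2(FPKM + 1) and log2(FPKM + 0.1), at 0.50 and 0.91. In 3DF against 2DF it was at -0.96 (SE 0.20, adjusted p = 0.018), and it passed the limit without 3DF replicate 2, at -1.07.

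ITGA5, the alpha chain of the main fibronectin receptor, varied least among the members. The gene is on chromosome 4, from 38145662 to 38168159 on the minus strand. It was at 15.8, 17.8 and 18.1 FPKM in 2DC, at 18.6, 19.8 and 13.3 in 2DC_L, at 13.3, 14.0 and 16.3 in 2DF, at 10.8, 12.3 and 14.8 in 3DF and at 12.9, 14.8 and 13.1 in 3DF_50. All 6 embedded libraries were below all 2DC libraries, whereas 2DF and 2DC_L overlapped 2DC. The log2 fold change of 3DF against 2DC was -0.45 (SE 0.14), with an adjusted p of 0.0679 (edgeR). The highest condition mean was 1.36 times the lowest.

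ITGAV, which takes part in receptors for vitronectin, fibronectin and latent TGF-beta, had condition means from 9.67 ± 0.27 (SD, n = 3) FPKM in 3DF_50 to 13.8 ± 1.7 in 2DC_L. It lies on chromosome 7, from 126961344 to 127063112 on the plus strand. It was at 12.0, 13.9 and 14.6 in 2DC, at 11.8, 14.98 and 14.5 in 2DC_L, at 8.745, 9.97 and 17.7 in 2DF, at 13.7, 11.8 and 12.4 in 3DF and at 9.855, 9.36 and 9.79 in 3DF_50. One 2DF library, replicate 3, was the highest of all 15 and the others of that condition were among the lowest. ITGAV was lower by 0.51 (SE 0.10) on the log2 scale in 3DF_50 against 2DC_L (edgeR adjusted p = 0.00255), with no overlap, and the 95% interval of 3DF against 2DC ran from -0.38 to 0.17.

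ITGA4, an alpha chain that binds fibronectin and VCAM1 and is best known from leukocytes, was the member with the largest spread within a condition. It lies on chromosome 7, from 121433522 to 121544431 on the plus strand, and CERKL overlaps it on the minus strand. It was at 3.04, 4.89 and 8.035 FPKM in 2DC, at 4.265, 5.55 and 9.38 in 2DC_L, at 2.33, 4.41 and 2.87 in 2DF, at 8.74, 5.84 and 6.68 in 3DF and at 3.85, 3.69 and 4.75 in 3DF_50. The coefficient of variation was 47.4% in 2DC, the highest of any member in any condition, where the median over members and conditions was 14.5%. All 3DF libraries were above all 2DF and 3DF_50 libraries. ITGA4 rose by 1.15 (SE 0.24) on the log2 scale in 3DF against 2DF (edgeR adjusted p = 0.0217). The call was lost without 2DF replicate 1, at 0.97, without 2DF replicate 3, at 1.08, and without 3DF replicate 1, at 0.97, with adjusted p-values of 0.0127 to 0.0924 over the 6 fits. Its values of -0.72 (SE 0.34, adjusted p = 0.192) in 2DF against 2DC and 0.76 (SE 0.18, adjusted p = 0.0849) in 3DF against 3DF_50 did not pass.

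The 3 libraries in which ITGA4 was highest, 2DC_L replicate 3, 3DF replicate 1 and 2DC replicate 3, were also the 3 with the highest level of ITGB2, the beta chain of leukocyte integrins, at 0.532, 0.309 and 0.701 FPKM. ITGB2 is 1 of 6 leukocyte markers examined, of which 5 were in the table, and CD68, CSF1R and CD3E did not share this order. The sum of the 5 ran from 1.91 to 3.23 FPKM in 2DC_L and from 2.31 to 2.84 in 3DF, with 2.27 to 5.41 for 2DC and 3.06 to 3.54 for 3DF_50. It was highest in 2DF, at 3.46 to 7.93, where ITGA4 had its lowest mean, and most of it was CD68, a marker of macrophages. PTPRC, which marks leukocytes, was at most 0.133 FPKM and highest in 2DC_L replicate 3 and 2DC replicate 3. The part of these markers in the ITGA4 result was not tested.

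Library names open with a code from E2 to E10 whose meaning the labels do not give, and libraries of different conditions share some codes. ITGA4 ranged from 2.33 to 4.41 FPKM in codes E5, E9 and E10, which include all of 2DF, beside 4.75 to 9.38 in E6, E7 and E8. The libraries of E2 and E3, at 3.04 to 5.55, spanned the gap between these ranges. Within E6, the log2 ratio of FPKM in 3DF to 2DC was -2.30 for SDC1, 0.86 for SDC4, -0.64 for ITGB1, -0.745 for ITGA11, -0.74 for ITGA5 and -0.19 for ITGA1, each with the sign of the comparison over all libraries. Of the other 4 members, ITGA2, ITGA4 and ITGAV also kept the sign, at 0.55, 0.12 and -0.09. ITGA10, at -0.014, did not, but its fit over all libraries had an interval on both sides of 0 (-0.45 to 0.50). Within E7, the ratio of 3DF to 3DF_50 was 0.63 for ITGA2, 0.30 for ITGA4 and 0.54 for SDC4. For 3DF_50 against 2DC_L, the ratios within E3 and E7 were -2.29 and -2.83 for SDC1, -0.85 and -1.45 for ITGA1, -1.03 and -1.01 for ITGA2, -1.36 and -0.84 for ITGA11, -0.88 and -1.18 for ITGB1, and 0.51 and 0.56 for SDC4. SDC1 in 2DC against 2DC_L was at -0.25 within E2 and -0.015 within E3.

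The 2DF libraries share no code with 2DC or 3DF, so for 2DF against 2DC and 3DF against 2DF no value within a code exists. Code E5 holds 2DF replicate 1 and 3DF_50 replicate 2, whereas E9 and E10 hold 2DF libraries alone. A fit over all 5 conditions with the code as a block therefore rests, for 2DF, on replicate 1. It cannot separate code from condition in replicates 2 and 3, so for 2DF only sizes are given. SDC1 was at -0.39 and SDC4 at 1.21 in 2DF against 2DC in that fit, ITGA10 at 0.38 and ITGA11 at 0.18. In 3DF against 2DF, ITGA11 was at -0.70 and ITGA4 at 0.94 in that fit. SDC1 stayed called in 3DF against 2DC, at -2.17, whereas SDC4 was at 0.90 and lost its call. In 3DF against 3DF_50, ITGA2 was at 0.98 and lost its call. In 3DF_50 against 2DC_L, ITGA2 lost its call at -0.96 and ITGB1 gained one at -1.03.

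**Figure D5:**
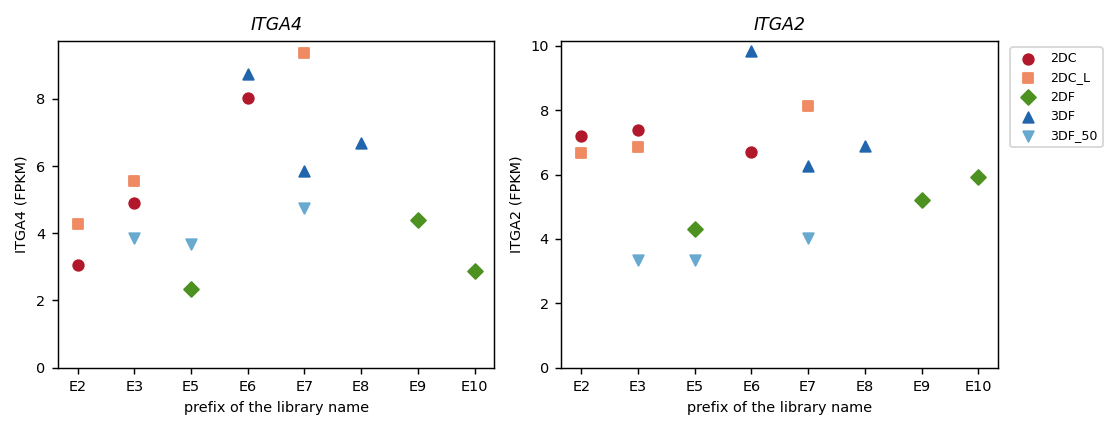
FPKM (y axis, from 0) of ITGA4 and ITGA2 by the code that opens the library name (x axis), with 1 point per library and symbols for the conditions. For ITGA4 the 2 libraries of E6, from 2DC and 3DF, lie close together at 8.035 and 8.74, while for ITGA2 the 3DF_50 libraries are below the others in every code they share.

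Ordered by condition mean, SDC1 ran from 2DC_L and 2DC through 2DF to 3DF and 3DF_50, and the steps from 2DC to 2DF and from 2DF to 3DF passed the adjusted p (edgeR, 0.00198 and 0.0303). SDC4 ran from 2DF through 3DF and 3DF_50 to 2DC and 2DC_L, with only the step from 3DF_50 to 2DC passing (adjusted p = 0.0047). ITGA11 was ordered 2DF, 2DC_L, 2DC, 3DF, 3DF_50, and the steps from 2DF to 2DC_L (adjusted p = 0.0293) and from 2DC to 3DF (adjusted p = 0.0245) passed. For ITGA2 the order was 3DF, 2DC_L, 2DC, 2DF, 3DF_50, with the steps from 2DC to 2DF (adjusted p = 0.0303) and from 2DF to 3DF_50 (adjusted p = 0.03) passing. In the other 6 members no neighbours in the order differed past the threshold. The ratio of highest to lowest mean was 3.15 for ITGA11, 2.67 for SDC4, 2.53 for ITGA1, 2.21 for ITGA4, 2.14 for ITGA2, 2.00 for ITGB1, 1.99 for ITGA10 and 1.42 for ITGAV.

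Genes that work beside the members were counted in 6 lists, with no test between lists. The share of all genes with an unadjusted p under 0.05 is not given. Counts at that threshold therefore cannot be set against all genes. In 3DF against 3DF_50, 0 of the 64 tested genes of all lists were called with edgeR or DESeq2, and 21 had an unadjusted p under 0.05. In 2DC against 2DC_L, 0 of 68 were called with either tool, and 2 had an unadjusted p under 0.05. ITGA2 was thus the only gene among the members and these lists called between the densities with edgeR. Its call held in only 1 of the 6 fits that left out a library, so it does not set ITGA2 apart from the genes not called.

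Of 18 other integrin subunits, 16 were in the table. With edgeR, 0 of 11 tested were called in 3DF against 2DC, where 3 had an unadjusted p under 0.05, and 0 of 11 in 2DF against 2DC, where 4 did. Between 3DF and 2DF 0 of 10 were called, where 4 had such a p and DESeq2 called 1. In 3DF_50 against 2DC_L, ITGB4, the partner of ITGA6 in epithelium, rose by 1.13 (SE 0.26) at means of 0.592 and 0.271 FPKM, and ITGA2B, the platelet alpha chain, fell by 1.01 (SE 0.10). The medians of this list were -0.07 in 3DF against 2DC and -0.29 in 3DF_50 against 2DC_L, beside 0.01 and 0.00 for all genes.

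Of the other syndecans and glypicans, which also carry heparan sulfate, 1 of 6 tested was called lower in 3DF against 2DC and 1 of 5 in 2DF against 2DC. In both this was GPC6, at -2.19 (SE 0.54) and -2.41 (SE 0.58), with means below 0.5 FPKM. Of all genes, 7.56% and 4.96% were called in these comparisons. Between 3DF and 2DF 0 of 5 were called with edgeR or DESeq2, and 1 had an unadjusted p under 0.05. In 3DF_50 against 2DC_L 4 of 5 were called lower with edgeR, where 13.5% of all genes were called, and 3 were called with DESeq2. Those called with edgeR were GPC4 at -1.78 (SE 0.13), GPC3 at -1.61 (SE 0.53), SDC3 at -1.16 (SE 0.14) and GPC6. Among genes that make, bind or act with syndecans, HSPG2, which encodes the basement membrane proteoglycan perlecan, fell by 1.44 on the log2 scale in 3DF against 2DC, by 1.07 in 2DF against 2DC and by 2.53 in 3DF_50 against 2DC_L. EXT2, an enzyme that builds heparan sulfate chains, fell by 1.16 in that last comparison. No other gene of this list was called with edgeR in the 6 comparisons.

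Of 8 other collagen receptors in the table, 0 were called in 3DF against 2DC with edgeR or DESeq2, and 2 had an unadjusted p under 0.05. CSPG4, a chondroitin sulfate proteoglycan, fell by 1.22 in 2DF against 2DC and by 1.34 in 3DF_50 against 2DC_L. MRC2, a receptor that takes up collagen, fell by 1.14 in 3DF_50 against 2DC_L. In 3DF against 2DF, CD36 rose by 4.37 (SE 1.02) and ADGRG1 by 2.05 (SE 0.44), both below 1 FPKM in both conditions. DDR2, which binds fibrillar collagen, had condition means of 24.7 to 32.8 FPKM and was called in none of the 6 comparisons.

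Genes that activate integrins or link them to actin were called in only 1 of the 6 comparisons. Of 19 tested, 0 were called with edgeR or DESeq2 in 3DF against 2DC, 2DF against 2DC and 3DF against 2DF, where 6, 3 and 4 had an unadjusted p under 0.05. In 3DF_50 against 2DC_L, LIMS2, an adapter of the ILK complex, fell by 2.06 (SE 0.36) and PARVA, the parvin of the same complex, fell by 1.22 (SE 0.10), and 10 of 19 passed the adjusted p, where 42.9% of all genes did. The median of this list was -0.15 in 3DF against 2DC and -0.17 in 3DF_50 against 2DC_L.

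Genes for proteins that the members bind, most of them matrix proteins, were called in 4 comparisons, each time lower. Of 13 tested in 3DF against 2DC, 6 were called, where 7.56% of all genes were, with a list median of -0.90. The 6 called were TNC at -6.88 (SE 0.51), COL3A1 at -2.58 (SE 0.42), POSTN at -2.40 (SE 0.41), FN1 at -1.70 (SE 0.22), COL1A1 at -1.49 (SE 0.21) and COL1A2 at -1.06 (SE 0.19). FN1, which encodes fibronectin, went from a mean of 792.6 FPKM in 2DC down to 568.9 for 2DF cells and 245.6 for 3DF cells. In 2DF against 2DC, 2 of 14 were called, TNC at -3.92 and POSTN at -1.43, where 4.96% of all genes were. In 3DF against 2DF, 2 of 13 were called, TNC at -2.94 and FN1 at -1.21, where 3.78% of all genes were. The medians in 3DF against 3DF_50 and 2DC against 2DC_L were 0.56 and -0.07. In 3DF_50 against 2DC_L, 11 of 13 were called, where 13.5% of all genes were, with a median of -1.56. The 6 with the largest changes were TNC at -7.91 (SE 0.63), POSTN at -3.29 (SE 0.24), COL3A1 at -2.93 (SE 0.36), FN1 at -2.49 (SE 0.20), COL1A1 at -2.33 (SE 0.18) and COL1A2 at -2.05 (SE 0.20).

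The genes whose log2 CPM ran most like that of a member over the 15 libraries were found among 9687 genes with a symbol and a mean of at least 1 FPKM. The 15 libraries share conditions, and these Pearson correlations are given as a description. For SDC1 the highest were PDIA5 (0.99), CSRP2 (0.99) and CGREF1 (0.98), and for SDC4 they were OTUD1 (0.97), CHSY3 (0.94) and ARSG (0.93). For ITGB1 they were LIMA1, RHOBTB3 and EPB41L2, all at 0.99, and for ITGA11 they were ENG (0.98), TRAM2 (0.97) and CLEC3B (0.96). ITGA1 was closest to RSU1 (0.98), FAM114A1 (0.96) and PFN2 (0.96), and ITGA2 to NFIA (0.97), ADGRL2 (0.97) and CASC4 (0.96). ITGA10 was closest to PKD1 (0.92), CABP7 (0.91) and ATP6V1B2 (0.91), and ITGA5 to MELTF (0.91), ZNF282 (0.90) and PSMD2 (0.89). The lowest top values were those of ITGA4, with GRIA2 (0.90), NCEH1 (0.89) and SGMS1 (0.86), and of ITGAV, with ENTPD4 (0.88), MTR (0.88) and ZBED6 (0.87).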

How the data were processed

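Bulk RNA-seq of 15 libraries, 3 for each of 5 conditions, was analysed. The deposited counts are whole reads per gene, which the authors obtained with HISAT2 2.0.5 on the oryCun2 assembly and featureCounts 1.5.0-p3, and whether counting used strand is not given in the sources used here. The deposited FPKM values are the authors' own, scaled by gene length and by a factor for each library. That factor was not the total of the counts. In 3DF_50 replicate 1, for example, ITGB1 had 8396 of 14626982 counts over 3677 bases, but 129.4 FPKM. How the factor was obtained is not given in the sources used here. Conditions were taken from the labels, and members were matched by symbol. The members and gene lists were chosen with earlier results of these data known.

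In R 4.3.3, edgeR 4.0.16 fitted the 2 conditions of a comparison alone, after TMM scaling and filterByExpr (smallest count 10), a filter that all 10 members passed in each comparison. Its quasi-likelihood test is two-sided. Intervals are 95% intervals from the t distribution. Alternatives were DESeq2 1.42.0, limma 3.58.1 on FPKM on a log2 scale with a pseudocount of 1 or 0.1, other scalings, filters and blocks, and fits without each library. Scripts were tested on simulated data. Python 3.11.15, numpy 2.4.6, pandas 2.3.3 and matplotlib 3.10.9 were used for levels, shares and plots.

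All members were reported. From the lists, called genes with a mean of at least 1 FPKM in either condition were named, at most 6 per list and comparison, and for each member the 3 genes with the highest correlation. The levels of DDR2, FN1, SDC2, ITGA3, ITGB2 and ITGB5 and the values of GPC6, ITGB4, CD36 and ADGRG1 were added after they were seen. Libraries of a condition correlated at 0.9906 to 0.9978 (log2 scale), and their counts differed by more than counting noise.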

Additional observations from a re-analysis of the deposited data

How the results depend on the processing

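A set of 36 member fold changes, most of them given in the text, was recomputed under 16 alternatives each. None of these 576 values changed direction. The other member fold changes of the 6 comparisons were recomputed too but are not summarised here, so the statement on direction does not cover them. Among those left out are changes close to 0, such as ITGA10 in 3DF against 2DC at 0.03, where a change of direction is easiest. Of the values, 525 stayed on the same side of the call, 42 lost it and 9 gained it. Without a limit on the fold change, 4 members were called in 3DF against 2DC, 5 in 2DF against 2DC, 4 in 3DF against 2DF and 7 in 3DF_50 against 2DC_L, where 15.4%, 14.4%, 6.05% and 42.9% of all genes passed the same adjusted p. With the code of the library name as a block, 1 member was called in 3DF against 2DC and 0 in 3DF against 3DF_50. Of all genes, 1159 and 10 were called there. For 2DF that fit rests on replicate 1, so no count is given. limma on log2(FPKM + 1) called 1 member in 3DF against 2DF, 0 in 3DF against 3DF_50 and 2 in 3DF_50 against 2DC_L, and limma on log2(FPKM + 0.1) called 0 in 3DF against 3DF_50. Of all genes, these fits called 268, 6, 946 and 16, in the same order. With library size alone, 0 were called in 3DF against 3DF_50 and 1 in 3DF_50 against 2DC_L, where 53 and 2104 of all genes were called. This scaling put the median of all genes at -0.15 and 0.36 in these comparisons. It put the median at 0.19 in 3DF against 2DC and 0.11 in 2DF against 2DC. Leaving out 1 library gave 1 to 2 called members in 3DF against 2DC, 2 in each fit of 2DF against 2DC, 1 to 3 in 3DF against 2DF, 0 to 1 in 3DF against 3DF_50, 2 to 5 in 3DF_50 against 2DC_L and 7 to 9 in the test over all conditions. Of all genes, these fits called 750 to 1028, 410 to 670, 339 to 520, 0 to 77, 1677 to 1924 and 4921 to 6240, in the same order. The cause of these changes was not tested.

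Samples were not paired by replicate number. Same-numbered libraries deviated together by more than 0.1 for every number in none of the 6 comparisons, which cannot exclude pairing of some. Replicates 1 and 2 of 2DC and 2DC_L share codes E2 and E3, and replicate 3 of 3DF_50 and 2DC_L shares E7. Libraries of unlike number share codes too. E6 holds 3DF replicate 1 and 2DC replicate 3, and E7 holds 3DF replicate 2 and 3DF_50 replicate 3. E3 holds 3DF_50 replicate 1 and 2DC_L replicate 2. A check or block by replicate number cannot see sharing of this kind. The highest correlations were 0.32 for replicate 1 in 2DC against 2DC_L and 0.26 for replicate 3 in 3DF_50 against 2DC_L. With the replicate block, 2, 3, 2, 1, 0 and 4 members were called in the 6 comparisons in the order of the report, and 8 over all conditions, as without it. With 3 libraries per condition and 51 to 325 counts per library for ITGA10 and ITGA1, small differences in these genes could have been missed.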
